A study of Mus musculus with 6 samples.

Results

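The glycolytic enzymes followed in these data were the products of 8 genes: the hexokinases Hk1 and Hk2, the liver-type phosphofructokinase Pfkl, the aldolase Aldoa, the triose phosphate isomerase Tpi1, the phosphoglycerate kinase Pgk1, the phosphoglycerate mutase Pgam1 and the lactate dehydrogenase subunit Ldha. All probe sets, the groups of short probes that read 1 transcript on an oligonucleotide array, whose annotation held a single symbol from this list were taken on all 6 arrays. They numbered 10 of the 12422 probe sets and covered 8 of the 8251 genes that had a probe set with 1 symbol. Probe sets were matched to the list by symbol alone. Hk2 and Aldoa had 2 probe sets each, and every other gene had 1.

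The cells were mIMCD3, an immortalised epithelial line established from the terminal part of the mouse collecting duct, so other cell types of the kidney and the body's own hormone cycle were not part of the experiment. One group was given vehicle and the other aldosterone, the adrenal steroid that raises sodium reabsorption in the distal nephron, both for 1 h, and total RNA was labelled for hybridisation. The experiment was carried out 3 times with 1 array per treatment each time, so there were 3 vehicle and 3 aldosterone arrays. The dose of the hormone, the medium and its glucose content could not be taken from the labels. Whether each repeat used separately grown cells is not in the labels, so p-values reflect only how far these samples spread, which may be technical.

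One array, aldosterone in replication 3, was deposited with a median intensity of 30.9 where the other 5 had 907 to 1003, and it was multiplied by 24.2 to reach the common scale. Of the 16 listed markers of collecting duct epithelium 11 had a probe set with 1 symbol. The epithelial genes Krt7, Krt8, Krt18, Krt19, Cdh1 and Elf3 were bright enough to be tested, while Aqp2, Aqp4, Avpr2, Gata3 and Hsd11b2, which mark the differentiated principal cell, were not. Markers of other cell types were counted the same way. The same filter on dim probe sets passed 4 of 6 fibroblast genes and 3 of 7 proximal tubule genes. It also passed 2 of 5 leukocyte, 1 of 6 endothelial and 1 of 2 intercalated cell genes. The summed level of the 2 intercalated cell genes was 555 to 755 under vehicle and 822 to 1232 under aldosterone, without overlap. Among single tested probe sets, 4.17% did not overlap, and the sums of the other marker lists did overlap. Kit had a log2 difference of 0.53 (standard error 0.331) and was not called, at an adjusted p of 0.9995 by limma. Slc4a1 was too dim for the test. The part of these genes in any enzyme value was not tested. In RNA from whole cultures, fewer cells of a type and less RNA per cell cannot be told apart.

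Glycolysis splits glucose into pyruvate in the cytosol and yields ATP without oxygen. Hexokinase traps glucose as its phosphate, phosphofructokinase commits the sugar to the pathway, aldolase and triose phosphate isomerase produce the triose phosphates, phosphoglycerate kinase makes ATP, phosphoglycerate mutase shifts the phosphate, and lactate dehydrogenase turns pyruvate into lactate and restores NAD+. The inner medulla of the kidney is poorly supplied with oxygen, and its cells are known for their reliance on this pathway. Many of its genes are known targets of hypoxia-inducible factors and of Myc.

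No glycolytic enzyme gene was called as changed after 1 h of aldosterone. The tested genes all lay near their vehicle level, from 0.927-fold for Pgam1 to 1.05-fold for Hk1. By limma with Benjamini-Hochberg adjustment, 0 of 9 tested probe sets passed at an adjusted p under 0.05, against 0 of 7453 (0%) over the whole array. At an unadjusted p under 0.05 there were also 0 of 9, against 0.966% of all tested probe sets, and with the replication number as a block 0 of 9 against 3.35%. In no tested probe set of these genes did the vehicle and aldosterone arrays separate without overlap, against 4.17% of all, and 0 of 9 were higher in all 3 replications (10.5% of all) or lower in all 3 (11.5%). The remaining probe set, for Hk2, was too dim for the test.

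**Figure D1:**
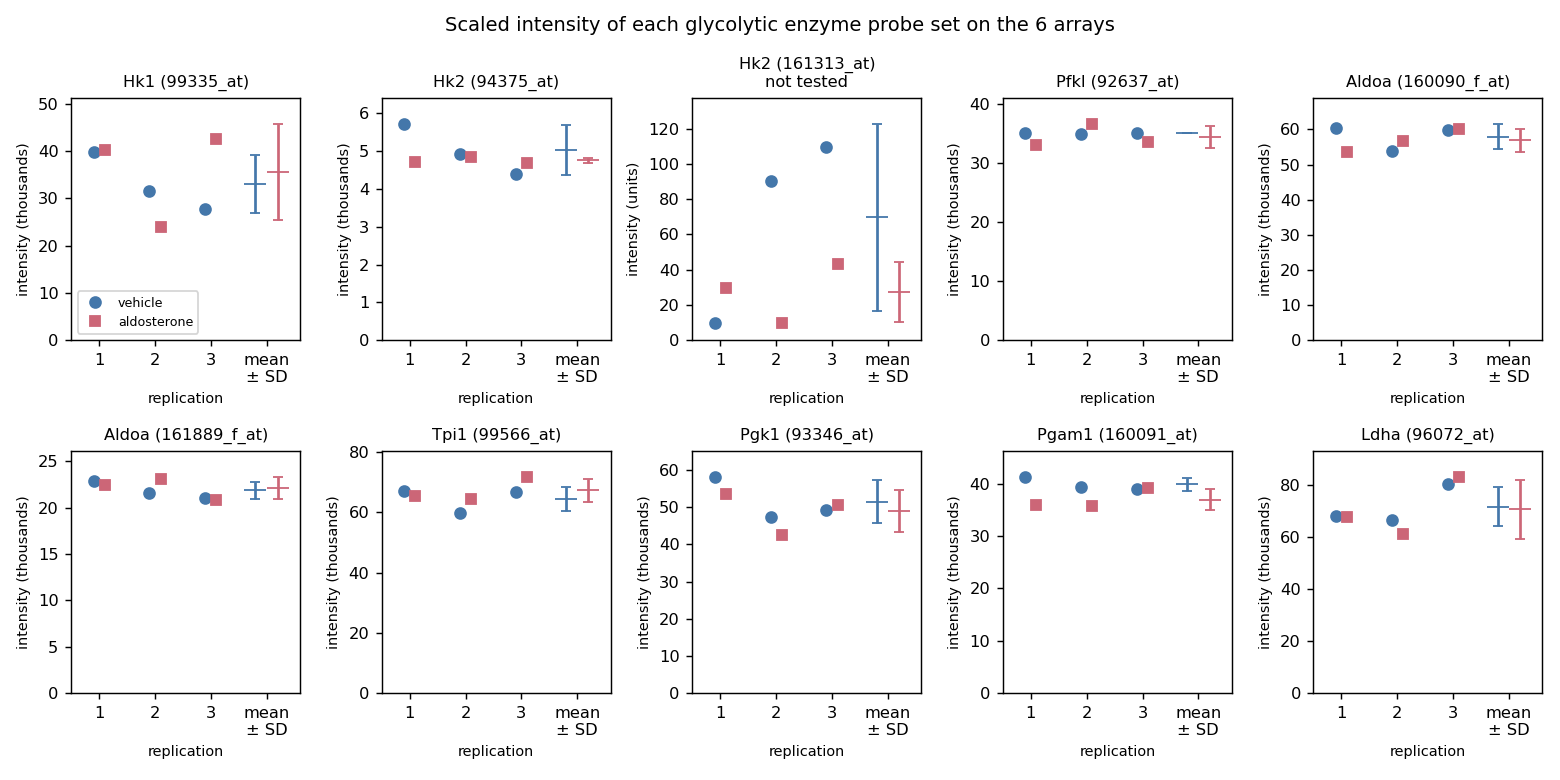
Scaled intensity (vertical axis with the unit given in each axis label, starting at 0) of each of the 10 probe sets by replication, with vehicle as blue circles and aldosterone as red squares; at the right of each panel a dash marks the group mean and the bar 1 SD over 3 arrays. The groups overlap in every panel, Ldha is highest on both arrays of replication 3, and the Hk1 arrays of replication 3 lie at 27719 and 42473.

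At the first step, Hk1 had the widest scatter of the tested enzyme probe sets. Hk1, the hexokinase found in most tissues, had readings under vehicle of 39839, 31478 and 27719 in replications 1, 2 and 3 and 40249, 23825 and 42473 with aldosterone. Its lowest and highest readings were both aldosterone arrays, so the group ranges overlapped completely. The log2 difference was 0.08 (standard error 0.222), and its 95% interval reached from 0.745-fold to 1.49-fold. Within the replications it was 0.01, -0.40 and 0.61, so the pairs disagreed in direction. Without the aldosterone array of replication 2 the difference was 0.34, and without replication 3 it was -0.19.

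Hk2, the hexokinase that insulin and hypoxia can raise, had vehicle readings of 5724, 4927 and 4411 and aldosterone readings of 4728, 4841 and 4699.6 on the brighter of its probe sets. The aldosterone arrays lay close together, at 4756 ± 75.0 (SD, n = 3), inside the span of the vehicle arrays at 5021 ± 661. The log2 difference was -0.07 (standard error 0.146), and replication 1 alone had a drop larger than 0.10, at -0.27. A change above 1.20-fold or below 0.759-fold lay outside the 95% interval. The other Hk2 probe set read 9.58 to 109 with vehicle and 9.73 to 43.5 with aldosterone. That is at the level of the value of 53.0 added before taking logarithms, so it gives no usable level.

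Pfkl, the commitment step, was the steadiest of the genes. Its vehicle arrays read 35063, 34933 and 35013, and its aldosterone arrays 33023, 36558 and 33465. All 3 vehicle readings lay inside the narrow span of the aldosterone readings. The log2 difference was -0.03 (standard error 0.101) and an interval from 0.838-fold to 1.15-fold.

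Aldoa, which cleaves the sugar into triose phosphates, was read by probe sets that both carry the suffix of a sequence family, meaning that their probes can match related sequences. The brighter one had vehicle readings of 60278, 53765 and 59805 and aldosterone readings of 53676, 56743 and 60215, a log2 difference of -0.03. The dimmer one read 22915, 21572 and 21074 against 22478, 23093 and 20786, a log2 difference of 0.02. The standard errors were 0.102 and 0.108, so neither probe set gave a direction.

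Tpi1, which interconverts the triose phosphates, had vehicle readings of 66962, 59766 and 66544 and aldosterone readings of 65529.5, 64424 and 71729.6. It was higher in 2 of 3 replications, by 0.11 on the log2 scale in replications 2 and 3, and lower by 0.03 in replication 1. The mean log2 difference of 0.06 (standard error 0.101) was smaller than its error. Tpi1 and Pgam1 were the 2 genes whose sign was the same in every alternative run.

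Pgk1, the first ATP-forming step, had vehicle readings of 58151, 47269 and 49128 and aldosterone readings of 53429.8, 42555 and 50714. The log2 differences were -0.12, -0.15 and 0.05 within the replications and -0.08 on average, with a standard error of 0.128. The block by replication lowered that standard error to 0.068, and the difference still did not pass, at an adjusted p of 0.998 by limma.

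Pgam1, which moves the phosphate on phosphoglycerate, had the largest mean decrease. It read 41311, 39425 and 38901.5 with vehicle (39879 ± 1267, SD, n = 3) and 35993, 35693 and 39226 with aldosterone (36971 ± 1959, SD, n = 3). The aldosterone arrays of replications 1 and 2 lay below all vehicle arrays, but that of replication 3 lay among them. The log2 difference was -0.11 (standard error 0.101), with an interval from 0.792-fold to 1.08-fold and an adjusted p of 0.9995 by limma. With the block the standard error was 0.070 and the interval reached from 0.830-fold to 1.03-fold, at an adjusted p of 0.998 by limma.

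Ldha, the last step, had vehicle readings of 68209, 66758 and 80415 and aldosterone readings of 67712, 61133 and 83239. Within each replication the pair lay close together, with log2 differences of -0.01, -0.13 and 0.05. The mean of -0.03 had a standard error of 0.135 on group alone and 0.065 with the block. With the block, a change above 1.08-fold or below 0.886-fold lay outside the 95% interval.

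**Figure D2:**
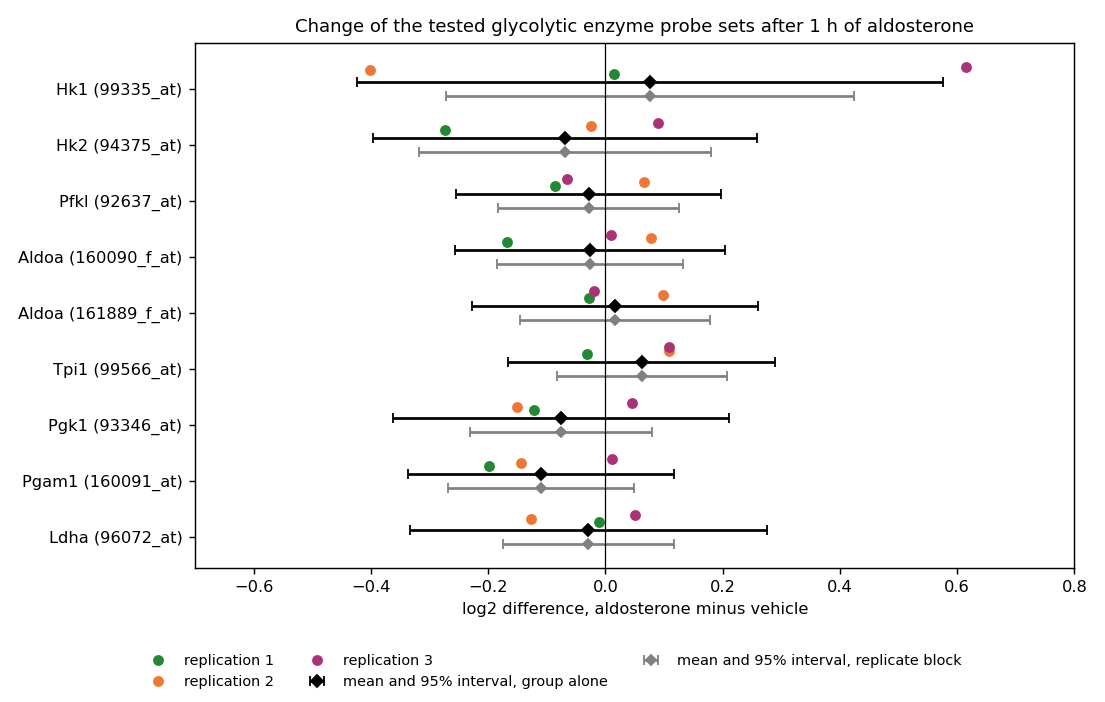
Log2 difference between aldosterone and vehicle (horizontal axis) for the 9 tested probe sets, with the mean and 95% interval of the fit on group alone in black and with the replicate block in grey, and the difference within each replication as coloured points. Every interval includes 0, and the points of Hk1 span -0.40 to 0.61.

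Taken at each gene's brightest probe set, 2 of the 8 enzymes were above and 6 below vehicle by sign, and their median was -0.03 on the log2 scale. Over all 5640 tested genes, 2786 were above and 2854 below, and the median was -0.002. The sign of the 8 depended on the replication. In replication 1, 7 of 8 were lower (median -0.10), in replication 2, 5 of 8 were lower (median -0.08), and in replication 3, 7 of 8 were higher (median 0.05). The aldosterone array of replication 3 is the rescaled one, and its part in that turn was not tested. Leaving it out gave a median of -0.07.

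The replications were then compared with each other. Limma's F test for the replication number, with treatment in the fit, called 1 of 9 glycolytic probe sets at an adjusted p under 0.05, against 7.82% of all 7453. The call was Ldha, at an adjusted p of 0.0495. Its readings in replication 3 were above those on all other arrays and its readings in replication 2 were the lowest, a 1.28-fold range between replication means on the log2 scale. At an unadjusted p under 0.05, Ldha, Pgk1 and Hk1 made 3 of 9, against 27.5% of all tested probe sets. Neither share stood far from its background.

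The Ldha call was close to the threshold and was lost on leaving out most of the single arrays. The number of calls over all tested probe sets also moved with the array left out, so these losses are not particular to Ldha. Its adjusted p by limma was 0.134 and 0.122 without the vehicle and the aldosterone array of replication 1, 0.0581 and 0.120 without those of replication 2, and 0.163 without the aldosterone array of replication 3. Leaving out the vehicle array of replication 3 kept it, at 0.0280. It was 0.269 when arrays were scaled to a common median, 0.310 without an intensity trend in the fit and 0.0957 with dim probe sets included.

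Pgk1 was ordered the other way at the top, with both arrays of replication 1 above the other 4 and both arrays of replication 2 below them. Its replication means lay 1.24-fold apart and its adjusted p was 0.0966, so it was not called with all arrays. It was called without the vehicle array of replication 3 (adjusted p = 0.0368), without the aldosterone array (0.0386) and without both (0.0204). Hk1 had the widest range, 1.46-fold from replication 2 to replication 1, but its 2 arrays of replication 3 differed so much that its adjusted p was 0.181. Leaving out the vehicle or the aldosterone array of that replication gave 4.60e-04 and 0.00146, leaving out both gave 0.00119, and leaving out the vehicle array of replication 2 gave 0.00204.

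For the remaining 6 probe sets the replication means were 1.04-fold (Pgam1) to 1.14-fold (Hk2) apart, with adjusted p-values of 0.381 to 0.869. Both arrays of 1 replication lay above the other 4 in 2 of 9 probe sets, Pgk1 and Ldha, against 40.3% of all tested probe sets. Both arrays of 1 replication lay below the other 4 in 5 of 9 against 40.1%, which was replication 2 for Tpi1, Pgk1 and Ldha and replication 3 for Hk2 and the dimmer Aldoa probe set. No replication was therefore the highest for the enzymes as a group. At the lower end, replication 2 had the lowest mean for Hk1, the brighter Aldoa probe set, Tpi1, Pgk1, Pgam1 and Ldha. The lowest was replication 1 for Pfkl and replication 3 for Hk2 and the dimmer Aldoa probe set. How common such a shared lowest replication is over all tested probe sets was not counted.

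**Figure D3:**
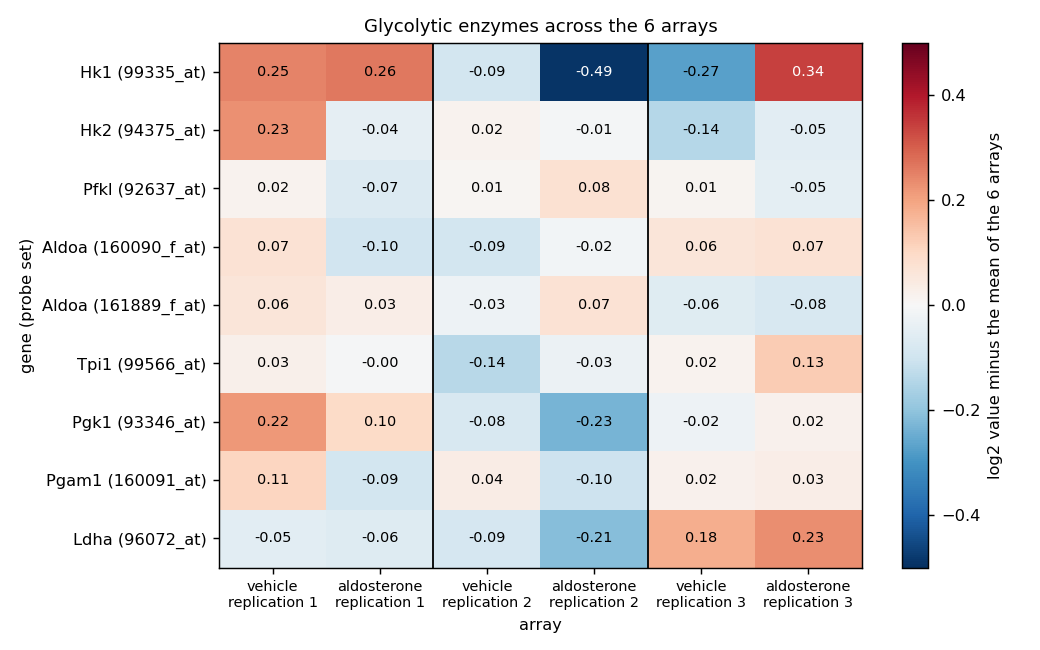
Log2 value of each tested probe set (rows) minus its mean over the 6 arrays, by array (columns, grouped by replication), in log2 units with red above and blue below the mean. Ldha is at 0.18 and 0.23 on the arrays of replication 3 and below 0 elsewhere, Pgk1 is highest in replication 1, and Hk1 runs from -0.49 to 0.34.

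Ldha and Pgk1 were the members whose paired arrays were ordered by replication at both ends. Both have promoters in the RefSeq table of build GRCm38.p6 that hold the core ACGTG. Hypoxia-inducible factors are known to bind it, and E-box factors such as Myc its longer form CACGTG. The Ldha window holds CACGTG and the Pgk1 window does not. The core was also in windows of Hk2, Aldoa and Pgam1, which were not ordered so at both ends. Its part in the replication order was not tested. The bases before the start site are printed 5′ to 3′ on the strand of the gene, with each match on either strand in capitals. CACGTG holds the core on both strands and appears as 1 run. For Ldha, the upstream of its 2 windows in the table is printed, at chr7:46845554-46845803 (plus strand) and for Pgk1 chrX:106186850-106187099 (plus strand), both 250 bases long.
Ldha: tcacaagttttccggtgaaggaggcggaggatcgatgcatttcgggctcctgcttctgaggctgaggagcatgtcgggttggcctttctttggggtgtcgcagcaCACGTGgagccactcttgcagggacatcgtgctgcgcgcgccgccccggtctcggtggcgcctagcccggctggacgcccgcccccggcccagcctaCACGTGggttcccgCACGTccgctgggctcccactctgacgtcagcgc
Pgk1: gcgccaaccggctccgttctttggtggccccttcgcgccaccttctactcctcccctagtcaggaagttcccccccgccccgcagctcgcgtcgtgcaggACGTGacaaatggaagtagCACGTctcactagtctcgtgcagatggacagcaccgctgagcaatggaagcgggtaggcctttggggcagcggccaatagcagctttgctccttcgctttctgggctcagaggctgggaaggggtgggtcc
The printed Ldha window has 3 runs, beginning 145, 48 and 34 bases before the start, of which 2 are the palindrome CACGTG, and the other Ldha window, chr7:46846832-46847081, has 0. The Pgk1 window has 2 runs, 150 and 131 bases before the start.

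All 8 enzyme genes matched the promoter table, with 12 promoter windows in all. The core ACGTG on either strand was in at least 1 window of 5 genes (Hk2, Aldoa, Pgk1, Pgam1 and Ldha), against 18.5% of the 27018 genes in the table, and in 6 of the 12 single windows, against 16.6% of all 32841 windows of that length. The windows with the core include overlapping Aldoa windows that share the same match, 202 and 126 bases before their start sites. CACGTG was found for 1 of the 8, Ldha, against 6.86% of genes. The steroid receptor half-site AGAACA was in a window of 3 genes, Hk1, Aldoa and Tpi1, against 18.2% of genes. These are matches of letters in the windows, not sites shown to be bound.

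Of the 9 tested probe sets, 8 varied less across the 6 arrays than the median tested probe set. The SD of log2 values over all 6 arrays was 0.053 for Pfkl, 0.064 and 0.080 for the Aldoa probe sets, 0.082 for Pgam1, 0.085 for Tpi1, 0.125 for Hk2, 0.154 for Pgk1, 0.172 for Ldha and 0.338 for Hk1. The median was 0.085, against 0.237 over all tested probe sets and 0.160 over the 745 brightest of them. Only 0.644% of tested probe sets had a smaller SD than Pfkl, while 73.8% had a smaller SD than Hk1. Apart from Hk2, each had at most 2.95% of tested probe sets above it in brightness. Their brightness therefore stands beside their low spread, and its part in it was not tested. Intensities of different probe sets do not rank the transcripts by abundance.

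**Figure D4:**
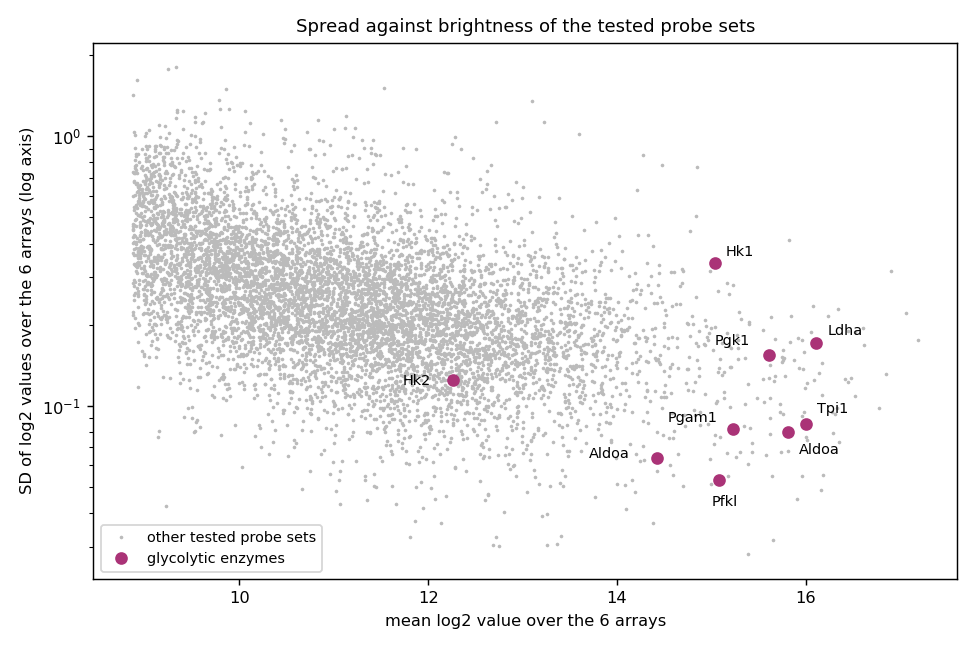
SD of log2 values over the 6 arrays (vertical, log axis) against mean log2 value (horizontal) for all 7453 tested probe sets in grey, with the 9 of the glycolytic enzymes in purple. Pfkl is near the lower edge at 0.053, and Hk1 at 0.338 is the widest of the enzymes.

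Several of these genes have other loci named after them. The RefSeq table names 4 further loci after Aldoa, 3 after Pgk1, 3 after Ldha and 2 after Pgam1. Those of Aldoa include protein-coding loci beside pseudogenes, the others are all listed as pseudogenes, and copies with other names are not counted. The probe sequences were not analysed here, so the part of the signal that comes from such copies was not tested.

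Like the 8, none of the other tested enzymes of the pathway passed for aldosterone. Of 19 further listed genes, 13 had a probe set with 1 symbol and 10 were tested; Gapdh, Gpi1 and Eno1 were among those not analysed here. By limma 0 of 10 passed for aldosterone, with 7 higher and 3 lower by sign around a median of 0.02, and 0 of 10 passed between replications. Pkm, the pyruvate kinase of most tissues, had 61349 ± 280 under vehicle and 61765 ± 3063 under the hormone (SD, n = 3 each), 0.009 apart on the log2 scale. A second Pkm probe set of the family type gave -0.05. The muscle and platelet phosphofructokinases Pfkm and Pfkp had 0.03 and 0.09 (with -0.09 in a second Pfkp probe set of nearly equal brightness), the aldolase Aldoc 0.16, the enolases Eno2 and Eno3 0.01 and 0.06, the bisphosphoglycerate mutase Bpgm -0.09, the sperm isoform Gapdhs -0.17 and the lactate dehydrogenase subunit Ldhb -0.08. Pklr, the liver and red cell pyruvate kinase, had 0.46 with a standard error of 0.475, at 787 ± 605 with vehicle.

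Glucose and lactate transport had 4 tested genes of 12 listed, 2 higher and 2 lower, with 0 called for aldosterone and 1 between replications. The glucose transporter Slc2a1 had 4981 ± 896 and 5026 ± 484 (SD, n = 3 each), 0.02 apart on the log2 scale. Bsg, the chaperone of the lactate transporters, was lower in 3 of 3 replications, as were 11.5% of all tested probe sets. Its mean log2 difference was -0.15, without passing. Between replications it was called by limma (adjusted p = 0.0270), with mean intensities of 59959.9 in replication 1, 48824 in replication 2 and 44598 in replication 3. The fructose transporter Slc2a5 had -0.42 with a standard error of 0.356, and Slc2a8 had 0.11.

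Regulators of flux had 7 tested genes of 17 listed, 2 higher and 5 lower, and 0 were called in either comparison. The largest value was 0.42 for Pfkfb3, which makes the activator of phosphofructokinase. Its standard error was 0.284, and it went from 642 ± 113 to 896 ± 287 (SD, n = 3 each). It was higher in 3 of 3 replications, as were 10.5% of all tested probe sets. The log2 differences were 0.84, 0.39 and 0.03 in replications 1, 2 and 3, so the last was close to none. The pyruvate dehydrogenase kinase Pdk1 had 0.04, the dehydrogenase subunits Pdha1 and Dld -0.005 and -0.08, and Dlat -0.36 in its brighter and 0.34 in its dimmer probe set. Gluconeogenic genes, 4 tested of 8 listed, split evenly, 2 higher and 2 lower. The glucose 6-phosphate transporter Slc37a4 had 0.31, G6pc3 0.06, Pck2 -0.06 and G6pc -0.06, and 0 were called in either comparison.

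Side branches, hypoxia genes and the Myc network were not called for aldosterone either, but some of their genes differed between replications. Of 15 tested genes of the pentose phosphate pathway and other branches, 10 were higher and 5 lower, and 2 (13.3%) were called between replications: the glycerol phosphate dehydrogenase Gpd2 (1.92-fold, highest in replication 1) and the glycogen synthase Gys1 (1.52-fold, highest in replication 2). Its other named genes had log2 differences of 0.009 for Pgm1, 0.19 for Pgm2 and 0.21 for Ugp2. Of 17 tested hypoxia genes, 10 were higher and 7 lower, and 2 (11.8%) were called between replications. These were Bnip3, a mitochondrial protein induced by low oxygen, and Egln1, the oxygen-sensing hydroxylase. By limma their adjusted p-values were 0.0268 and 0.0327, and both were highest in replication 3. Bnip3 averaged 8791, 9366 and 12829.7 in replications 1, 2 and 3, and Egln1 7882, 10672 and 11629. Ddit4, induced by stress and hypoxia, had a treatment difference of 0.36 and Arnt, the partner of the hypoxia factors, 0.31, neither of them called. Ddit4 averaged 4940, 3521 and 3280 in replications 1, 2 and 3, highest in replication 1, and was not called between replications either. Any tie between the order of these genes and that of Ldha was not tested.

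In the Myc-Max network, 4 tested genes were higher and 2 lower after aldosterone, and 2 of 6 (33.3%) were called between replications. Myc averaged 3148, 1124 and 698 in replications 1, 2 and 3. It was highest in replication 1 and lowest in replication 3, and its part in the order of any enzyme was not tested. The repressor Mxd4 averaged 2245, 3916 and 2295, highest in replication 2. Mnt and Mxd3 had treatment differences of -0.07 and -0.19. All these shares between replications stand against the 7.82% of all tested probe sets and rest on few genes.

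**Figure D5:**
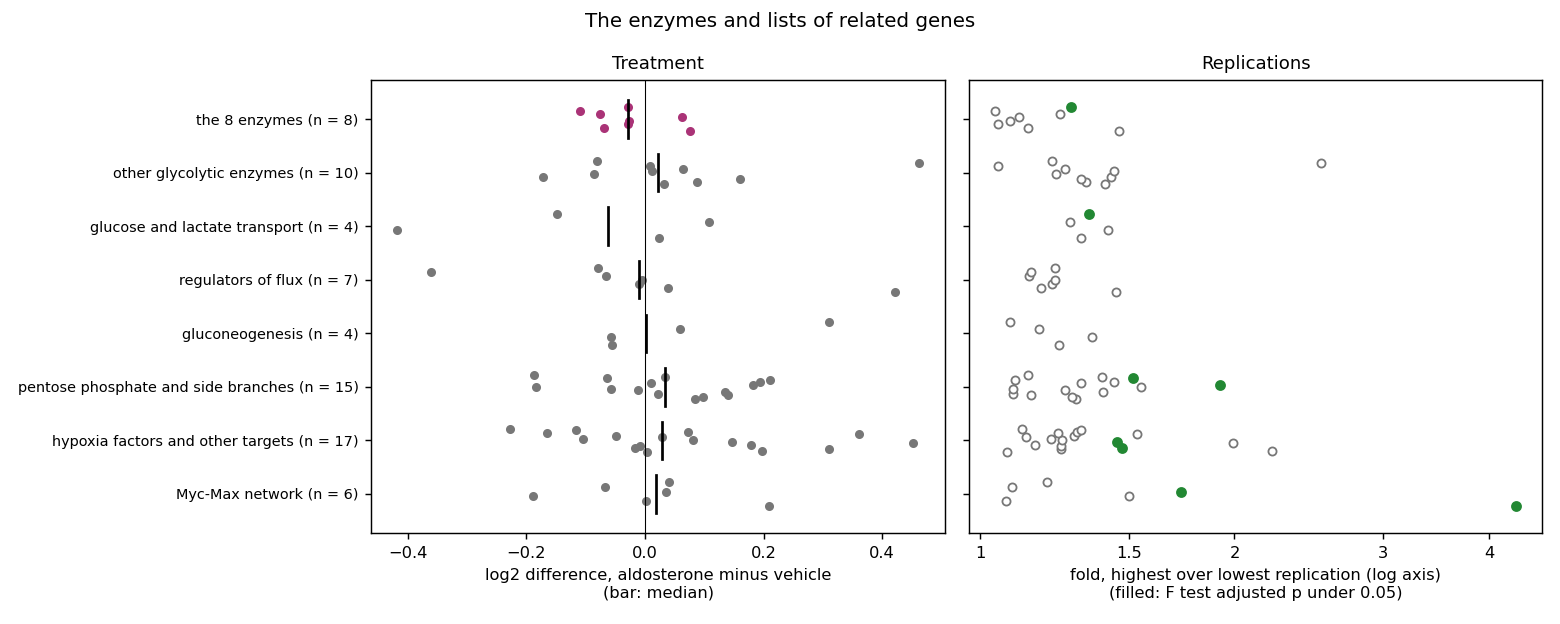
Left, log2 difference between aldosterone and vehicle for each tested gene of the 8 enzymes (purple) and of 7 lists of related genes (grey), with a bar at the median; right, the fold between the highest and lowest replication on a log axis, filled green where the F test's adjusted p was under 0.05. The median of the 8 enzymes is -0.03, none of the genes passed for treatment, and Myc lies farthest right at 4.31-fold.

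Across the arrays the enzymes followed each other to different degrees. Their mean log2 value, each gene centred on its own mean, was highest on the vehicle array of replication 1 (0.11) and the aldosterone array of replication 3 (0.09), and lowest on the aldosterone array of replication 2 (-0.13). Against the mean of the other 7 genes, Pearson's r over the 6 arrays was 0.81 for Pgk1, 0.63 for Pgam1, 0.61 for Hk1, 0.58 for Tpi1, 0.37 for Ldha and 0.26 for Hk2, but -0.62 for Pfkl. The Aldoa probe sets gave 0.48 and -0.24, of opposite sign, and their r with each other was not computed. Outside the 8, the genes most like their mean profile were Rps3a1 (r = 0.991), Otud5 (0.976), Snhg1 (0.975), Myef2 (0.972) and Rpl13a (0.971). That profile was a mean of centred values not divided by their SD, so Hk1, with an SD of 0.338, weighed most in it. An r above 0.8 was reached by 231 of 5632 tested genes. These values describe 6 arrays that come in 3 pairs and share 1 scaling step. Pfkl, the gene at -0.62, had an SD of only 0.053, and r within other sets of bright genes was not computed.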

How the data were processed

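RNA from 6 samples was hybridised to single-colour arrays, and the deposited values, as the authors gave them, are intensities on a linear scale to 1 decimal. How the scanner values were summarised and scaled is not given in the sources used here. The 2% trimmed means of the arrays differed by more than 10%, so each array was scaled to their mean. A pseudocount of 53.0, the 10th percentile after scaling, was added before log2. This understates changes of dim probe sets. Testing was limited to 7453 probe sets whose mean on that scale reached 8.87 (40th percentile), which left out 4969. Depth has no equivalent on arrays; their number limits the precision.

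Symbols came from the platform annotation, in which 10833 probe sets had 1 symbol, 396 several and 1193 none; 0 symbols changed when set against RefSeq genes of GRCm38.p6 through Entrez identifiers, and 16 probe sets had an identifier not found there. Promoter windows of 250 bases were taken from the RefSeq promoter table, without the bases after the start.

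Limma 3.58.1 in R 4.3.3 (lmFit, then eBayes with its trend option, two-sided) compared aldosterone with vehicle on group alone, and tested replication with an F test beside group. P-values were Benjamini-Hochberg adjusted over all tested probe sets, with a threshold of 0.05. The fits were tested on simulated data with known changes. The data drawn for the treatment fit held no differences between replications, so they do not show how that fit behaves where replications differ. The replication numbers pair the arrays: the labels describe each number as 1 run of the experiment, and same-numbered arrays deviated together from their groups, with r of 0.377, 0.387 and 0.471. Alternatives were the scaling, the pseudocount, the filter, the trend, the block, and leaving out arrays or replications. RNA quality could not be assessed, as the control probe sets planned for it were not analysed here.

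Genes were named by rule: all probe sets of the 8 enzymes, all tested genes among the other glycolytic enzymes, of each other list the 3 with the smallest p between replications and the 2 with the smallest p for treatment, and the 5 genes most like the mean profile. Marker genes, the second probe sets of Pkm, Pfkp and Dlat and the genes missing from the array were named outside this rule. The members and lists were chosen with earlier results of these data known.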

Additional observations from a re-analysis of the deposited data

How the results depend on the processing

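The count of glycolytic probe sets called for aldosterone was 0 with the replicate block, as in all 18 alternatives. The pairing changed no call. Over all tested probe sets the calls for aldosterone were at most 1 in any alternative, so a count of 0 says little of the enzymes themselves. The joint setting of replicate block and no intensity trend was chosen after the data were seen. The median log2 difference of the 8 genes ranged from -0.10 (without replication 3) to 0.02 (without replication 1). Single differences changed sign 20 times, spread over 10 of the 18 settings, all with an adjusted p of 0.9995 or more by limma. Ldha was at 0.000500 after quantile normalization and the brighter Aldoa probe set at 0.0013 with median scaling. Leaving out arrays or replications gave -0.19 to 0.34 for Hk1, -0.16 to 0.033 for Hk2, -0.076 to 0.00018 for Pfkl, -0.080 to 0.044 and -0.024 to 0.061 for Aldoa, -0.14 to 0.021 for Pgk1 and -0.15 to 0.070 for Ldha.

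Between replications, the count of glycolytic probe sets called was 1. It was 0 with median scaling, with no filter and with no intensity trend, and 0 to 3 on leaving out arrays or replications. The adjusted p of Ldha was 0.269, 0.0957 and 0.310 in the first 3, and 0.0280 to 0.603 on leaving out arrays or replications. It passed with quantile normalization, both other pseudocounts, the stricter filter and replication alone in the fit. With no intensity trend 2 probe sets were called on the whole array; the other causes were not tested. The dim Hk2 probe set limits what can be said of a second reading of that gene.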
